A study of Mus musculus with 11 samples.

Results

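Elastic fibres give arteries, valves and the connective tissue of the heart their recoil. The genes described here are 10 that encode the core protein, the scaffold, the linking proteins and the cross-linking enzymes of these fibres: Eln, Fbn1, Mfap5, Fbln1, Fbln2, Fbln5, Efemp1, Efemp2, Lox and Loxl1. They were chosen by name, through the gene symbol, an older synonym or the accession of each probe. They had 13 probes out of 41121 on the array, and were 10 of 27567 genes by name. Fbn1, Fbln1 and Fbln5 had 2 probes each.

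The samples were cardiac progenitor cells (mesoangioblasts, which grow out from vessel-associated tissue) and C2C12, a mouse myoblast line that served as the control for muscle differentiation. The progenitors came from atrium, ventricle or aorta biopsies of beta-sarcoglycan null mice (KO, 5 arrays) or of wild-type mice (WT, 3 arrays), and C2C12 had 3 arrays. KO ventricle, KO aorta and C2C12 each had a pair of arrays that differed by less than the noise between repeated spots, and each pair was averaged and counted as 1 sample. That left 3 KO samples, 3 WT samples and 2 C2C12 samples, so each KO or WT sample is the single one of its region. C2C12 1 is the averaged pair, from the 2 slides that carried KO arrays, and C2C12 2 is the array on the slide with the WT arrays. Mouse age, cell passage and growth state at harvest are not stated, nor whether any 2 samples were separate animals or cultures. A p-value here therefore sets a difference only against the scatter of these samples, which may be technical and, within KO or WT, is scatter between regions.

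Elastin is secreted as the soluble monomer tropoelastin and is laid down on bundles of microfibrils whose backbone is fibrillin. Fibulins are secreted proteins with repeated calcium-binding EGF domains that bind elastin, microfibrils or other matrix proteins, and some of them bring the cross-linking enzymes to elastin. The lysyl oxidases are copper enzymes that turn lysines of tropoelastin into cross-links and make the fibre insoluble. In the heart and great vessels, smooth muscle cells and fibroblasts are the usual sources.

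Each level given here is log2 of the processed spot signal with the array's own 75th percentile subtracted, so 0 is that percentile and a difference of 1 is a doubling. Levels of different probes are not on a common scale and are not set against each other. The 75th percentile of signal ran from 961 to 1145 over the 11 arrays, and 49.0 to 62.0% of probes were well above background. The number of arrays limits the precision. The brightest probe of Sgcb, the gene for beta-sarcoglycan, read 2.34 to 2.99 in the KO samples, 1.82 to 2.20 in the WT samples and 2.41 to 2.82 in C2C12. A dimmer probe read 0.06 to 0.99 in the KO and -0.04 to 0.26 in the WT samples, and another was above background on no array. With the brightest probe the KO mean was 0.63 above the WT mean (SE 0.21, limma adjusted p = 0.0710), so the targeted gene was not lower in the samples labelled KO. Which part of the gene is deleted is not given, and a probe outside it checks nothing. The samples are therefore called KO-labelled and WT-labelled, and every direction rests on those labels. Some markers of other cell types moved with the labels. All 6 skeletal myoblast markers (Myod1, Myog, Myf5, Cdh15, Des, Chrna1) were above background in the KO-labelled samples, where their summed signal, in units of the 75th percentile, was 46.4 to 149. It was 0.0999 to 0.146 in the WT-labelled samples, where Myog, Myf5 and Cdh15 were above background on no array, and 70.5 to 152 in C2C12. Cardiomyocyte markers summed to 32.8 to 66.7 in the KO-labelled, 7.45 to 13.9 in the WT-labelled and 67.5 to 105 in the C2C12 samples, and pericyte markers to 18.6 to 24.8, 8.02 to 10.8 and 44.0 to 45.3 in the same order. Actc1 and Tnnt2 made up nearly all of the cardiomyocyte sum. Ryr2 was above background on no array, and Myh6 on 2 of 5 KO arrays and no WT array. Pdgfrb was the largest part of the pericyte sum, and Rgs5 and Kcnj8 were above background on no KO or WT array. Smooth muscle markers summed to 142 to 285 in the KO-labelled and 30.3 to 163 in the WT-labelled samples, so these ranges overlapped. Acta2 and Tagln made up most of this sum. Of 4 tested only Cnn1 was called (difference 3.72, limma adjusted p = 0.0286), and Smtn went the other way (-0.23, not called). Macrophage and blood markers summed to 0.0949 to 0.173 in the KO-labelled and 1.10 to 2.33 in the WT-labelled samples. Lyz2 made up most of the WT-labelled sum and was above background on no KO array. Ptprc was above background on no array, and Cd68 on 5 of 5 KO and 1 of 3 WT arrays. The fibroblast markers moved apart: of the 5 tested, Col1a1 (difference 0.77, limma adjusted p = 0.0116) and Col1a2 (0.91, 0.0153) were higher in the KO-labelled samples. Pdgfra (-4.11, limma adjusted p = 0.00102), Dcn (-4.16, 0.0431) and Thy1 (at least 1293-fold, 0.00011) were lower. Thy1 was above background on no KO array and entered the test through its signal in the WT-labelled samples, so it had to differ. None of 5 endothelial markers was above background in any KO-labelled or WT-labelled sample. The part of these differences in cell identity in the results on elastic fibre genes was not tested. In bulk RNA, fewer cells of a type and less RNA per cell cannot be told apart.

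For 6 of the 10 genes a RefSeq promoter of 300 bases (250 before and 50 from the annotated start on, assembly GRCm38.p6) was at hand, in 10 windows. Shown are 4 of them: Fbn1, the single gene of the set called higher in the KO-labelled samples, Fbln2 and Efemp2, both called lower, and Efemp1, which differed most between samples. Each is written 5′ to 3′ along the gene's own strand. Capitals mark every match, on either strand, to 5 motifs searched: the TATA box TATAAA, the GC box GGGCGG, the AP-1 site TGACTCA, the E-box CAGCTG bound by MyoD, and the SMAD element CAGACA.
Fbn1, minus strand of chr2:125506389-125506688: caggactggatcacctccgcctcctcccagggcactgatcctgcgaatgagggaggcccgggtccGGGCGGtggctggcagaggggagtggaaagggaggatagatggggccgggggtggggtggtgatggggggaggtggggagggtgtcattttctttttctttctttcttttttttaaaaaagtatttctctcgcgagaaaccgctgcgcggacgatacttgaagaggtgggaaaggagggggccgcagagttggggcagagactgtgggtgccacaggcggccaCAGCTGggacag
Fbln2, plus strand of chr6:91212514-91212813: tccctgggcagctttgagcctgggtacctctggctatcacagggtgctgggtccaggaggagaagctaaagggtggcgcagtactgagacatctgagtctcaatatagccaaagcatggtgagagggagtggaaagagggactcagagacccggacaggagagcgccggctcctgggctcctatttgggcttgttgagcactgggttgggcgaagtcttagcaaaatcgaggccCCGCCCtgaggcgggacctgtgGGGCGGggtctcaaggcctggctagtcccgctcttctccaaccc
Efemp2, first of its windows, plus strand of chr19:5473696-5473995: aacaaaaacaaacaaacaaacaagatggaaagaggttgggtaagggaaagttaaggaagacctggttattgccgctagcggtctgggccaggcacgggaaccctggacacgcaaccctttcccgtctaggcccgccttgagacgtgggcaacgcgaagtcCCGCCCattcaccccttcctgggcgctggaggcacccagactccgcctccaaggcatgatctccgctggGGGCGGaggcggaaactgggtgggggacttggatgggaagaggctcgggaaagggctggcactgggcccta
Efemp1, plus strand of chr11:28852955-28853254: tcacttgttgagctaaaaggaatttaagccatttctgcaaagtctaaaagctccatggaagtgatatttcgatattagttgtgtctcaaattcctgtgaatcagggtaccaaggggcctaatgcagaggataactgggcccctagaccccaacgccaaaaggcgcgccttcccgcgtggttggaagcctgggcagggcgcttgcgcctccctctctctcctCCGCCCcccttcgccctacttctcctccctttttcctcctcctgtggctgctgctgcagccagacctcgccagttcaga
The E-box is in the Fbn1 window, with its first base at position 39 counted from the start, and in the 2 overlapping Fbln1 windows, which share 1 site, and in none of the others. Over all 32851 promoter windows of the same length, 16.3% hold it. The GC box is in the window of all 4 genes shown, and 35.7% of all windows hold it. No TATA box or AP-1 site is in these 10 windows, against 13.6% and 5.20% of all windows. The SMAD element is in windows of Fbln1 and Fbln5 and in 21.0% of all windows. A match describes the letters and is no evidence that a factor binds there.

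Of the 10 genes, 7 were above background on all 11 arrays: Fbn1, Fbln1, Fbln2, Efemp1, Efemp2, Lox and Loxl1. On the repeated arrays of a sample, the 30 readings above background on both arrays differed by a median of 0.02 and by at most 0.24 on the log2 scale.

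**Figure D1:**
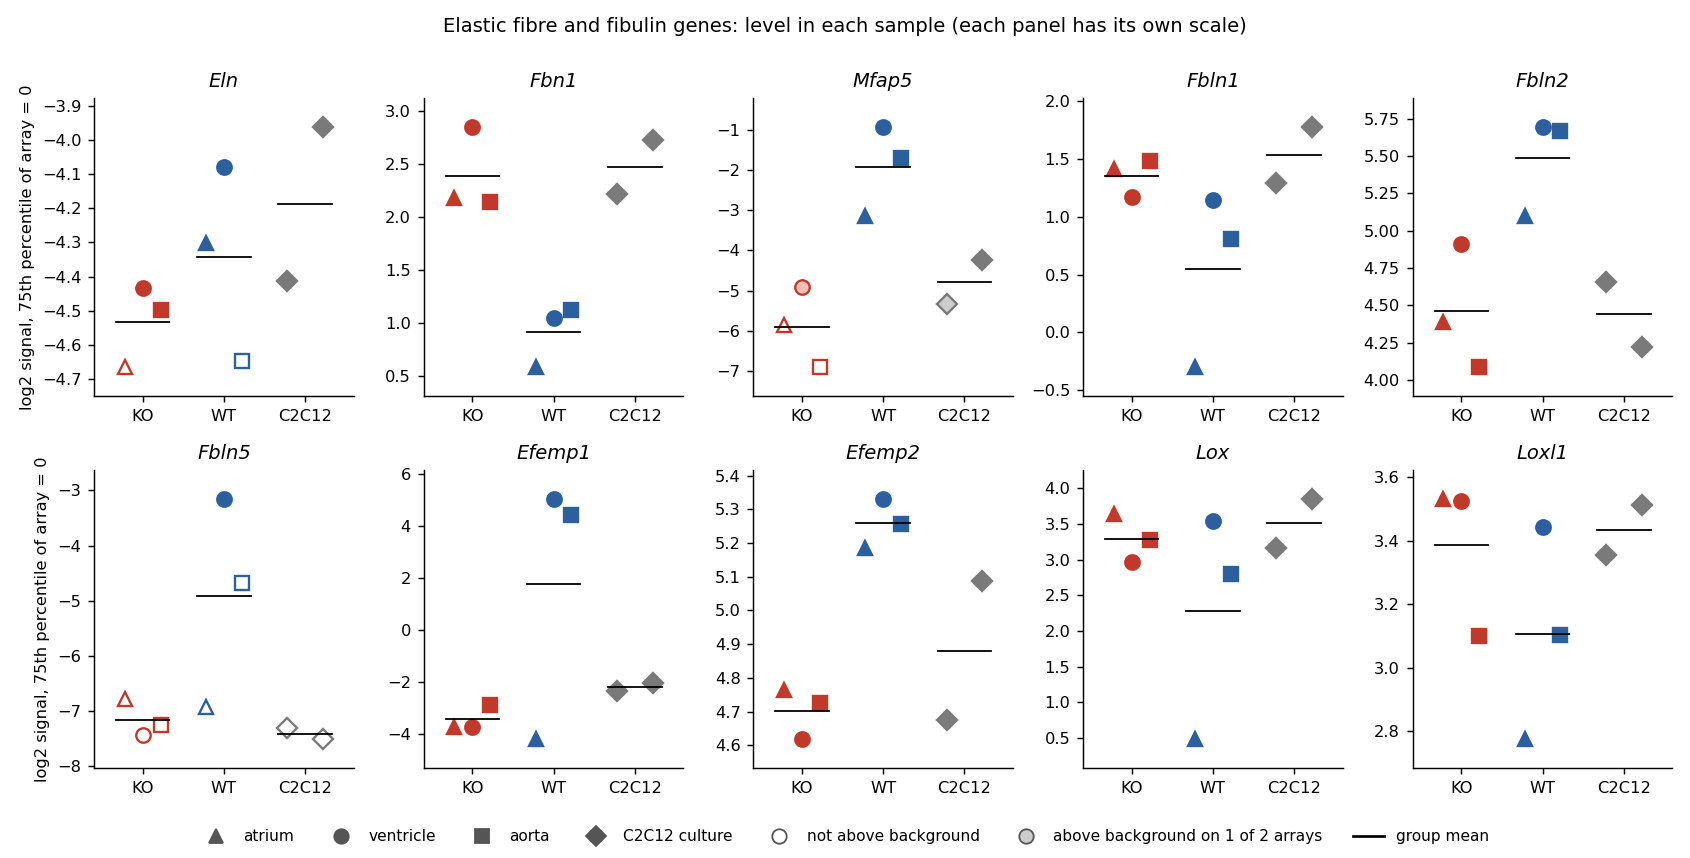
Level of each gene in each sample on the log2 scale, with 0 at the 75th percentile of the array and a separate scale for each panel. Samples labelled KO stand left, WT in the middle and C2C12 right, the symbol shape gives the heart region, the bar is the group mean, open symbols were not above background, and pale ones were above it on 1 of 2 arrays. Fbn1 is higher in all 3 KO-labelled samples than in any WT-labelled one, while Efemp1 is high in WT ventricle and WT aorta only.

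The comparison of KO-labelled with WT-labelled progenitors asks how loss of the sarcoglycan, a membrane protein that ties muscle cells to their matrix, goes with gene activity in these cells. The submitters describe null progenitors as forming skeletal muscle and WT ones as forming beating heart muscle. It tested 9 of the 10 genes, since Fbln5 did not pass the filter of 3 arrays above background. Fbn1 was higher, Mfap5, Fbln2 and Efemp2 were lower, and 5 did not pass the test (limma, adjusted p under 0.05). Over all 15002 genes tested, 29.8% were called, 13.7% higher and 16% lower, so 4 of 9 is read against a background of 29.8%. With median scaling 2235 genes were higher and 1786 lower, against 2061 and 2405 here, and with normexp background correction 1559 were higher and 1248 lower. Mfap5 passed the filter through the WT-labelled samples, so its call adds nothing to the count. The median difference of the 9 was -0.19, against -0.06 over all genes, and the median size was 1.02, against 0.44. No slide held both KO-labelled and WT-labelled arrays. A fit with the slide as a block, tied through C2C12, called none of the 9 (897 genes in all), and its SEs were larger. The tie rests on 1 C2C12 sample from the KO slides and 1 from the WT slide. Their arrays differed by 2.73 to 2.86 times the noise between repeated spots. An effect of the slide and a difference between these 2 C2C12 samples therefore cannot be told apart, here and wherever the slide block is used below.

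Eln, the gene for tropoelastin itself (mm8 chr5:134987886-134987945), was near background in every sample. It read -4.67 in KO atrium, -4.43 in KO ventricle and -4.50 in KO aorta, against -4.30 in WT atrium, -4.08 in WT ventricle and -4.65 in WT aorta. It was above background on 4 of 5 KO arrays and 2 of 3 WT arrays. The groups overlapped, and the difference was -0.19 (SE 0.19, adjusted p = 0.485). In C2C12 it read -4.41 and -3.96. The sign of the difference turned with normexp background correction (0.34) and with the slide block (0.26), and it was -0.06 without WT ventricle and -0.34 without WT aorta.

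Fbn1 encodes fibrillin-1, the backbone of microfibrils and the gene mutated in Marfan syndrome. Its brighter probe (mm8 chr2:124992432-124992491) read 2.18 in KO atrium, 2.85 in KO ventricle and 2.15 in KO aorta. WT-labelled cells gave 0.58 (atrium), 1.05 (ventricle) and 1.13 (aorta). The groups did not overlap, and the KO-labelled mean of 2.39 ± 0.40 stood 1.47 above the WT-labelled mean of 0.92 ± 0.30 (SD, n = 3 each; SE 0.26, limma adjusted p = 0.00867). That is a 2.78-fold difference. The other Fbn1 probe (mm8 chr2:124992959-124993018) differed by 1.59 (SE 0.28, adjusted p = 0.00832 over all probes). Higher signal was seen in each region, by 1.60 in atrium, 1.80 in ventricle and 1.02 in aorta. With any sample left out the difference stayed between 1.24 and 1.60 (limma adjusted p 0.0138 to 0.0294). With the slide block it was 1.98 (SE 0.52, adjusted p = 0.0979).

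Mfap5 encodes MAGP-2, a small glycoprotein that binds fibrillin on microfibrils. Its probe (mm8 chr6:122494539-122494598) gave -5.85 in KO atrium, -4.92 in KO ventricle and -6.92 in KO aorta, and it was above background on 1 of 5 KO arrays, so these levels have no order. It read -3.15 in WT atrium, -0.92 in WT ventricle and -1.69 in WT aorta, with all arrays above background, and the groups did not overlap. The fit gave -3.98 (SE 0.72, limma adjusted p = 0.00937), which is no exact size, since it sets the WT-labelled signal against readings at background. The gene entered the test through its signal in the WT-labelled samples. Normexp background correction gave -1.23 (adjusted p = 0.111), and the slide block gave -2.88 (adjusted p = 0.354).

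Among the fibulins, Fbln2 encodes fibulin-2, which binds fibrillin and elastin and is made in developing heart valves. It read 4.39 in KO atrium, 4.91 in KO ventricle and 4.08 in KO aorta, against 5.10 in WT atrium, 5.69 in WT ventricle and 5.67 in WT aorta (probe at mm8 chr6:91237628-91237687). The groups did not overlap, and KO-labelled samples were lower by 2.03-fold (log2 difference -1.02, SE 0.28, limma adjusted p = 0.0374). The direction was the same in all 3 regions, at -0.71 in atrium, -0.78 in ventricle and -1.58 in aorta. This call lay close to the threshold. It ended without KO aorta (-0.83, limma adjusted p = 0.108), KO atrium (-0.99, 0.115), WT ventricle (-0.92, 0.111) or WT aorta (-0.93, 0.116), with median scaling (0.0502), quantile normalization (0.0506) or no filter on dim probes (0.0804), and with the slide block (-1.46, adjusted p = 0.221).

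Efemp2 encodes fibulin-4, which brings lysyl oxidase to tropoelastin. It had the tightest groups, at 4.76 in KO atrium, 4.62 in KO ventricle and 4.72 in KO aorta, against 5.19 in WT atrium, 5.33 in WT ventricle and 5.26 in WT aorta (probe at mm8 chr19:5481762-5481821). All 3 KO-labelled samples lay below all 3 WT-labelled ones, and the difference was -0.56 (SE 0.13, limma adjusted p = 0.0207), a 1.47-fold lower signal. Each region gave the same direction, from -0.71 in ventricle to -0.42 in atrium. C2C12 read 4.68 on the KO slides and 5.09 on the WT slide, a gap in the same direction as that between the labels. It sets 1 C2C12 sample against 1 other, so slide and sample cannot be told apart. The C2C12 gap also ran with the labels for Mfap5 (-5.34 and -4.24), but against them for Fbn1 (2.22 and 2.73) and Fbln2 (4.66 and 4.22). With the slide block the Efemp2 difference between the labels was -0.15 (SE 0.25, adjusted p = 0.828). The call also ended with median scaling (-0.45, limma adjusted p = 0.0635), no filter on dim probes (0.103) or the region as a block (0.0673), and without KO ventricle (0.0623), KO aorta (0.0760), KO atrium (0.0661), WT ventricle (0.0695) or WT aorta (0.0671), with differences of -0.59 to -0.51.

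Fbln1 encodes fibulin-1, found in basement membranes and in elastic fibres. It read 1.41 in KO atrium, 1.18 in KO ventricle and 1.48 in KO aorta, against -0.30 in WT atrium, 1.15 in WT ventricle and 0.81 in WT aorta (probe at mm8 chr15:85113334-85113393). The KO-labelled samples lay above the WT-labelled ones, by 0.03 at the closest. The mean difference of 0.81 (SE 0.38, limma adjusted p = 0.165) did not pass the test. The other probe (mm8 chr15:85113190-85113250) gave 0.92 (SE 0.36, adjusted p = 0.107 over all probes). By region the difference was 1.72 in atrium, 0.03 in ventricle and 0.67 in aorta, so most of it lay in the atrium, and without WT atrium it was 0.38.

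Fbln5 encodes fibulin-5, which binds tropoelastin and integrins and is needed for elastic fibre assembly in mice. Its brighter probe (mm8 chr12:102147718-102147777) was above background on 1 of 11 arrays. It read -7.44 to -6.79 in the KO-labelled samples, and -6.92 in WT atrium, -3.15 in WT ventricle and -4.69 in WT aorta, and WT ventricle was the one above background. C2C12 gave -7.31 and -7.51. The other probe (mm8 chr12:102165542-102165601) was above background nowhere. No difference is given for a gene at this level.

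Efemp1 encodes fibulin-3, a fibulin of fascia and vessel walls in mice. It had the widest range of the set. Its level was -3.70 in KO atrium, -3.72 in KO ventricle and -2.86 in KO aorta. WT atrium gave -4.19, but WT ventricle 5.05 and WT aorta 4.42 (probe at mm8 chr11:28826538-28826597). WT ventricle and WT aorta were thus far above all other samples, and WT atrium was the lowest of the 8. The mean difference between the labels was -5.19 (SE 2.43, limma adjusted p = 0.162) and did not pass, since the WT-labelled SD was 5.16, against 0.49 in the KO-labelled samples (n = 3 each). Without WT atrium it was -8.16 (limma adjusted p = 0.000269), and leaving out any other sample gave no call. WT atrium stands apart in these same values, so the call made without it is no separate result.

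Lox encodes lysyl oxidase, the main cross-linking enzyme of elastin and collagen. It read 3.64 in KO atrium, 2.96 in KO ventricle and 3.28 in KO aorta, against 0.48 in WT atrium, 3.54 in WT ventricle and 2.80 in WT aorta (probe at mm8 chr18:52641882-52641941). The groups overlapped, and the difference of 1.02 (SE 0.77, limma adjusted p = 0.369) did not pass. It was 0.12 without WT atrium and 1.65 without WT ventricle. Loxl1 encodes the lysyl oxidase relative that fibulin-5 tethers to elastic fibres in mice. It read 3.53 in KO atrium, 3.53 in KO ventricle and 3.1 in KO aorta, against 2.77 in WT atrium, 3.44 in WT ventricle and 3.1 in WT aorta (probe at mm8 chr9:58088900-58088959). These groups overlapped too, and the difference was 0.28 (SE 0.23, limma adjusted p = 0.403), at 0.11 without WT atrium and 0.45 without WT ventricle.

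**Figure D2:**
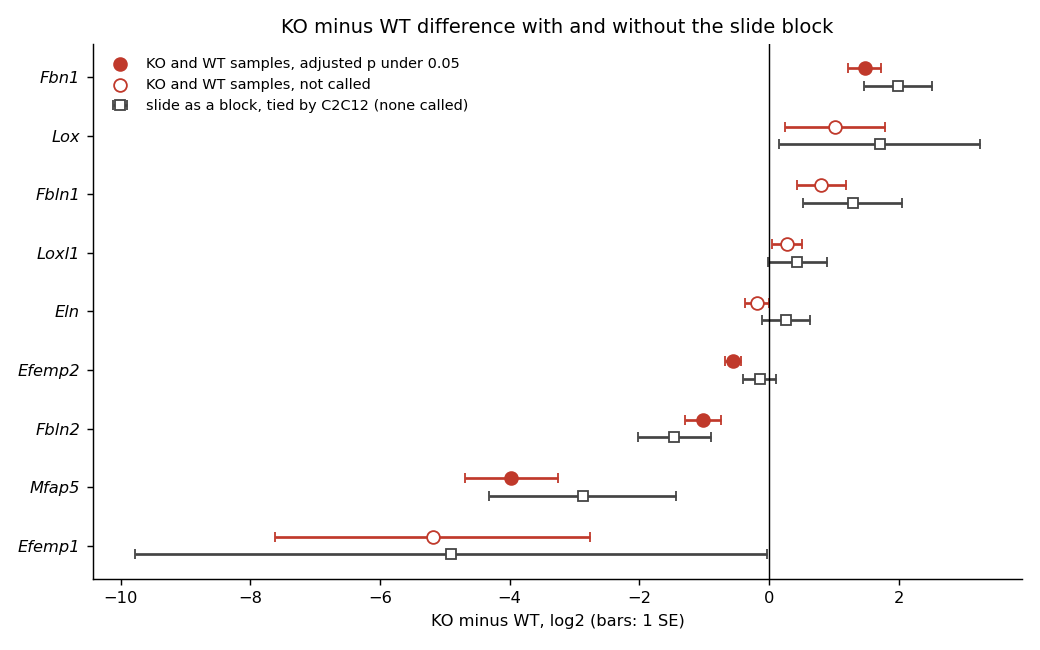
KO minus WT difference of the 9 tested genes on the log2 scale, with bars of 1 SE: round symbols from the 3 KO-labelled and 3 WT-labelled samples (filled where the adjusted p is under 0.05), squares from the fit with the slide as a block. Fbn1 lies at 1.47 and 1.98 in the 2 fits, while Efemp2 lies at -0.56 and -0.15 and Eln changes side.

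The regions of the heart were then compared, as the design names them. A fit with genotype and region called no gene at all (limma F test, 0% of 15002 genes, 719 genes and none of the 9 at an unadjusted p under 0.05). With 1 KO-labelled and 1 WT-labelled sample per region it has few degrees of freedom. Within the WT-labelled samples, 8 of the 9 tested genes were lowest in atrium, against 40% of all genes tested, and 8 were highest in ventricle, against 30.6%. This is a description of 3 samples. Within the KO-labelled samples the members' range over regions was 0.15 to 2.0, and apart from Mfap5, which was near background there, at most 0.85.

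Efemp1 stood furthest apart between WT regions, with a signal in ventricle 604-fold and in aorta 390-fold that in atrium. WT atrium minus the mean of WT ventricle and aorta was -8.92, a contrast of 3 single samples that was chosen after the values were seen. In it Efemp1 ranked 4 from the lowest of 15807 genes. The same contrast was -2.69 for Lox, -1.84 for Mfap5 and -1.28 for Fbln1. In the KO-labelled samples it was -0.41 for Efemp1 and 0.53 for Lox. These values are a description: a model with 1 mean per genotype and region has no spread but that of the C2C12 pair, so no p-value is read from it here.

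Some markers of other cells differed between the WT regions too. The epicardial and mesothelial marker Msln read 3.08 in WT atrium, 6.57 in WT ventricle and 6.25 in WT aorta, and Bnc1 read -0.91, 2.12 and 1.83 in the same order. The list did not move as one, since Tbx18 read 0.28, -0.97 and -1.07, and Krt19 and Upk3b were above background in no WT-labelled sample. In the KO-labelled samples Msln read 1.02 to 2.73 and Bnc1 was above background on no array. The 5 smooth muscle markers summed to 30.3 in WT atrium, against 163 in WT ventricle and 96.6 in WT aorta, with Myh11 above background in none of the WT-labelled samples. The fibroblast markers did not move as one either. Dcn read 0.63, 4.15 and 3.85 in WT atrium, ventricle and aorta. Thy1 and Dpt were also lowest in WT atrium, where Dpt was not above background. Col1a2 and Pdgfra were lowest there by less, with Pdgfra at 1.82, 2.42 and 1.91 in the same order. Col1a1 was highest in WT atrium, at 5.57, 5.52 and 5.21, and Lum was above background in no WT-labelled sample. The part of all these markers in the levels of Efemp1 and Lox was not tested. A region always sat at 1 fixed place on its slide, so the effects of region and place cannot be told apart.

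**Figure D3:**
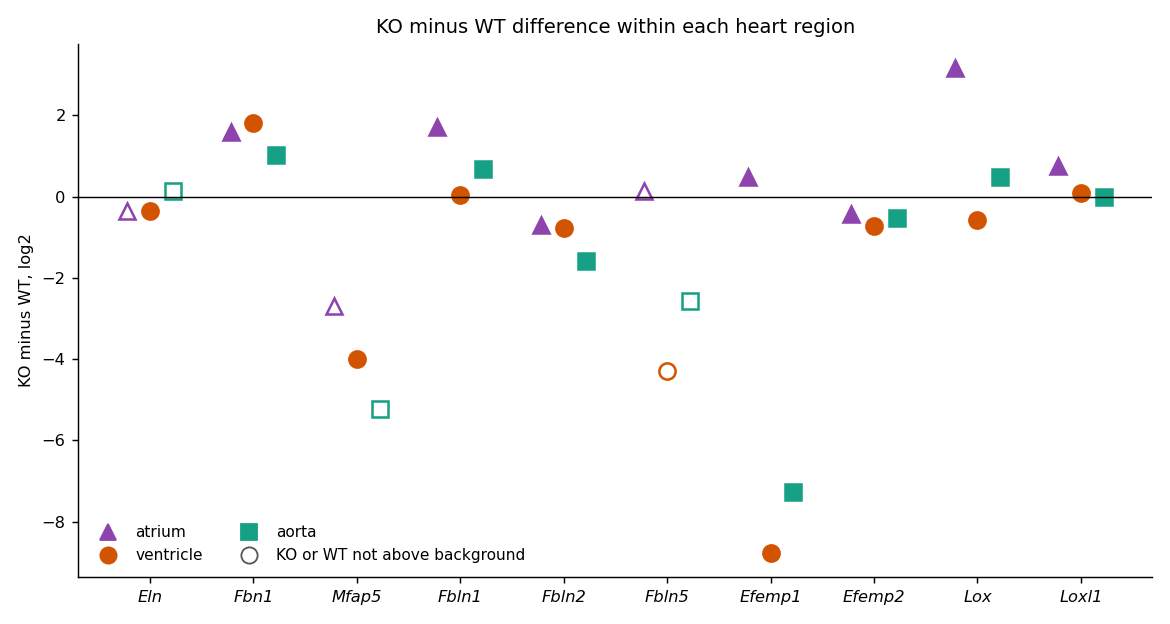
KO minus WT difference within atrium, ventricle and aorta on the log2 scale, 1 sample per label and region, with open symbols where the gene was not above background on one side. Efemp1 lies at 0.49 in atrium but at -8.77 in ventricle and -7.28 in aorta, and Lox at 3.16 in atrium, -0.58 in ventricle and 0.48 in aorta, while Fbn1 is above 0 and Fbln2 and Efemp2 below 0 in all 3 regions.

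KO-labelled progenitors were next set against C2C12, the control for muscle differentiation. None of the 9 tested genes was called, also at an unadjusted p under 0.05, and 1.26% of all 15807 genes were called, 0.664% higher and 0.595% lower (limma). The differences ran from -1.25 for Efemp1 (SE 2.52) to 0.02 for Fbln2 (SE 0.31). Fbn1 averaged 2.39 ± 0.40 in the KO-labelled samples (SD, n = 3) and 2.22 and 2.73 in the C2C12 samples, a difference of -0.09 (SE 0.30, limma adjusted p = 0.965). A gene that misses the test is not thereby shown to be equal, and besides Efemp1 the SE was widest for Lox (0.82) and Mfap5 (0.79). The sign of 7 of these small differences turned under some alternative.

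WT-labelled progenitors differed from C2C12 in 3 of the 9 genes, with 27% of all genes called (limma). Fbn1 was lower in the WT-labelled samples (difference -1.56, SE 0.30, limma adjusted p = 0.00824), at -1.81 with the slide block (adjusted p = 0.0261). This one call ended without the C2C12 sample on the WT slide (-1.30, adjusted p = 0.0686). Fbln2 was 1.05 higher (SE 0.31, limma adjusted p = 0.0428), with C2C12 at 4.66 and 4.22. Mfap5 was 2.87 higher (SE 0.79, limma adjusted p = 0.0345), with C2C12 at -5.34 and -4.24 and above background on 2 of 3 C2C12 arrays. The slide block ended the calls of Fbln2 (1.26, adjusted p = 0.0907) and Mfap5 (2.32, adjusted p = 0.198). So did normexp (adjusted p = 0.0717 for Fbln2, and 1.22 with adjusted p = 0.154 for Mfap5) and no filter on dim probes (limma adjusted p = 0.0796 for Fbln2 and 0.0527 for Mfap5), and quantile normalization for Fbln2 (0.0518). Fbln2 was also not called without C2C12 1 (0.0883), C2C12 2 (0.231), WT ventricle (0.107), WT aorta (0.112) or KO atrium (0.0712), and Mfap5 not without C2C12 1 (0.195), C2C12 2 (0.0783), WT ventricle (0.0830), WT aorta (0.0915) or KO atrium (0.0597). Efemp1 was 3.94 higher (SE 2.52, limma adjusted p = 0.296), and 6.91 higher without WT atrium (limma adjusted p = 0.00012), with C2C12 at -2.32 and -2.04. WT atrium stands apart in these same values, so the call made without it is no separate result. This comparison shares the WT-labelled samples with that of the labels, and the comparison of KO-labelled samples with C2C12 shares the C2C12 samples.

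Other genes of the elastic fibre system, in 7 lists of 46 genes, were read in the same fit of KO-labelled against WT-labelled samples. Of the 36 tested, 5 were higher and 9 lower, with a median of -0.28, against -0.06 over all genes. That is 14 of 36, where 29.8% of all genes were called. Of these 14 calls 12 ended with the slide block. The other 2, Mfap2 and Tll1, were above background in 1 group only and passed the filter through it, so they had to differ. Loxl2 and Fbln7 were above background on 1 of 3 WT arrays, Tgfb2 on 2 of 3, and Igf1 on 2 of 5 KO arrays. These genes too passed the filter of 3 arrays through the group where they were higher, so their calls add nothing to the count.

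Among 10 tested microfibril proteins and partners, 1 was higher and 3 were lower. Mfap2 encodes MAGP-1, the relative of the Mfap5 product, and read -0.45 in KO atrium, -1.38 in KO ventricle and -1.82 in KO aorta. It was above background on none of the WT arrays, and KO-labelled samples exceeded WT-labelled ones at least 12.4-fold (limma adjusted p = 0.000745), while its dimmer probe gave 0.79 (adjusted p = 0.0965 over all probes). Ltbp2, a latent TGF-beta binding protein that associates with fibrillin, was lower, at 1.65 to 2.37 in the KO-labelled and 2.78 to 4.54 in the WT-labelled samples (difference -1.61, SE 0.46, limma adjusted p = 0.0454). Adamtsl4 (difference -2.12, SE 0.51, limma adjusted p = 0.0254) and Adamts10 (-1.06, SE 0.19, limma adjusted p = 0.00936) were lower as well, and both encode secreted proteins that bind fibrillin-1. With the slide block Adamtsl4 was at -3.19 (adjusted p = 0.155). The dimmer Adamts10 probe gave -0.84 (adjusted p = 0.0641 over all probes).

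In the fibulin and lysyl oxidase families calls went both ways. Fbln7, the 1 tested fibulin relative, was called higher at -4.87 to -3.30 in the KO-labelled and -5.78 to -5.44 in the WT-labelled samples (limma adjusted p = 0.0480), where it was above background on 1 of 3 arrays. In C2C12 it read -0.45 and -0.36, and it was the 1 listed gene called between KO-labelled samples and C2C12 (-3.84, SE 0.43, limma adjusted p = 0.0122), a call that ended with the slide block (-3.79, adjusted p = 0.103). Loxl2, a lysyl oxidase relative that acts on collagen, read -1.97 in KO atrium, -3.70 in KO ventricle and -0.63 in KO aorta. It gave -4.95 to -4.54 with WT-labelled cells and was above background on 1 of 3 arrays (limma adjusted p = 0.0384), and its dimmer probe gave 1.48 (adjusted p = 0.151 over all probes). Loxl4 was lower, at -3.83 to -3.24 in the KO-labelled and -2.40 to -1.83 in the WT-labelled samples (difference -1.48, SE 0.23, limma adjusted p = 0.00543), and its other probe gave -1.54. With the slide block it was -0.52 (adjusted p = 0.630). Loxl3 was not called.

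Of 9 genes for assembly, processing and copper supply none was higher and 2 were lower. Tll1 encodes a tolloid protease of the family that activates lysyl oxidase. It was above background on no KO array, against -2.67 in WT atrium, -3.68 in WT ventricle and -2.66 in WT aorta, and was lower by at least 3.88-fold (limma adjusted p = 0.000653). Bmp1, which encodes the main protease that cuts the propeptide from lysyl oxidase, was lower with its brighter probe (difference -0.81, SE 0.22, limma adjusted p = 0.0372), but its other probe gave -0.05 (adjusted p = 0.830 over all probes). None of 3 tested elastin-cutting enzymes was called. Of 4 inhibitors of such enzymes, Cst3, the gene for cystatin C, was lower (difference -0.64, SE 0.15, limma adjusted p = 0.0246).

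Signals known to act on elastin genes in vascular cells also went both ways, with 2 of 6 higher and 2 lower. Tgfb2 read 0.24 in KO atrium, 0.30 in KO ventricle and -0.62 in KO aorta, against -3.07 in WT atrium, -3.80 in WT ventricle and -4.46 in WT aorta (difference 3.75, SE 0.42, limma adjusted p = 0.00162). Tgfb1 read 0.39 to 1.10 in the KO-labelled and -1.48 to -0.62 in the WT-labelled samples (difference 1.82, SE 0.29, limma adjusted p = 0.00578). Tgfbr1, a receptor for both ligands, was lower in the KO-labelled samples (difference -1.52, SE 0.21, limma adjusted p = 0.00378). Igf1, a growth factor that raises elastin synthesis in cultured vascular smooth muscle cells, read -5.46 in KO atrium, -4.77 in KO ventricle and -5.46 in KO aorta, where it was above background on 2 of 5 arrays. WT atrium gave -1.15, WT ventricle 0.86 and WT aorta 0.20 (limma adjusted p = 0.00110, and -5.72 with its other probe). These 4 calls ended with the slide block, at adjusted p = 0.0612 for Tgfb2, 0.205 for Tgfb1, 0.120 for Tgfbr1 and 0.106 for Igf1.

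**Figure D4:**
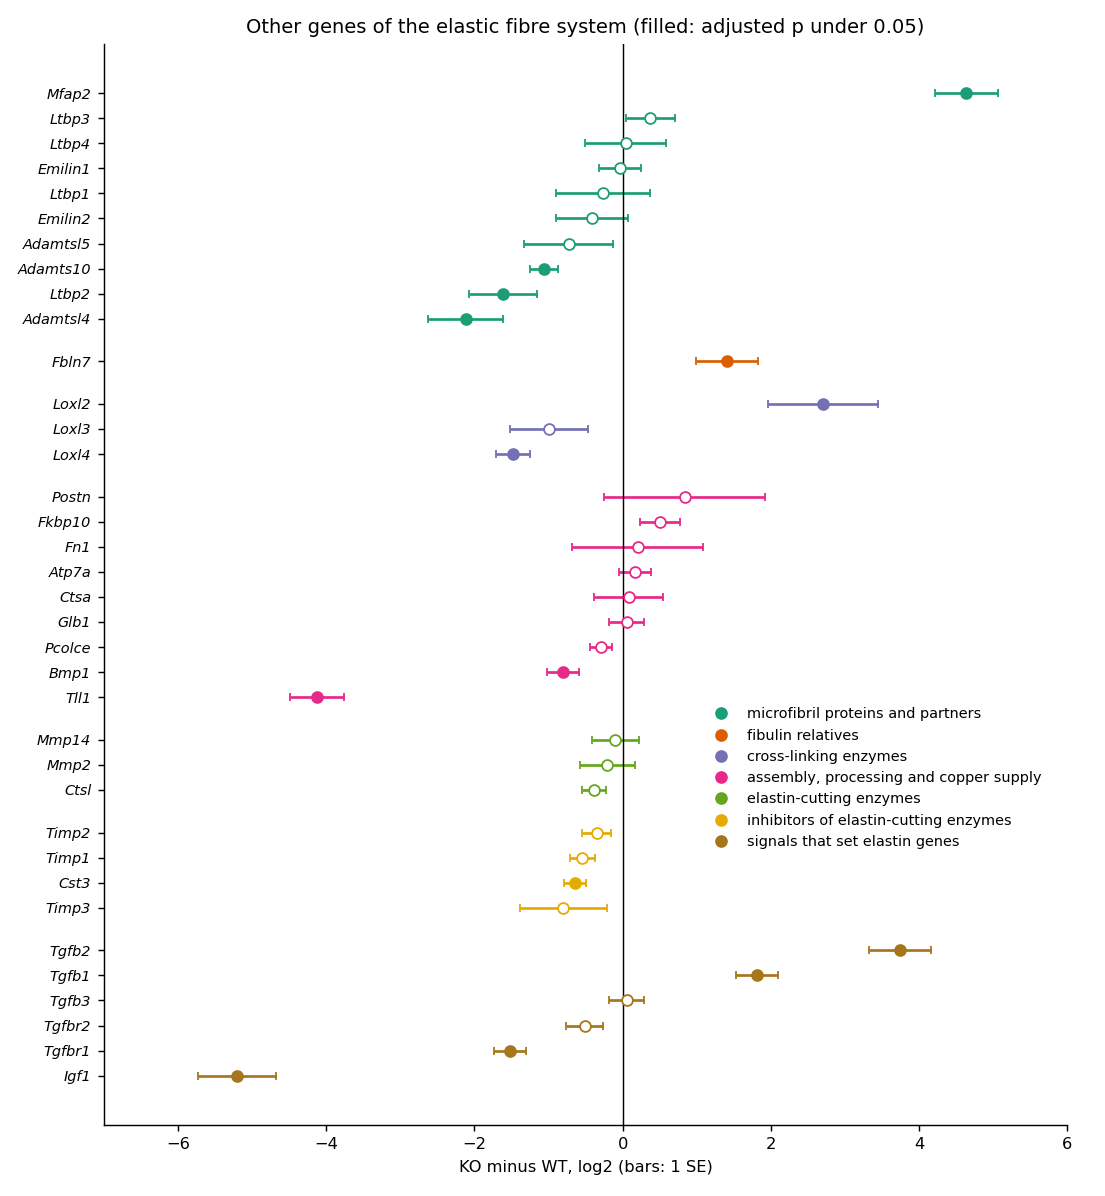
KO minus WT difference of the 36 tested genes of the wider elastic fibre system on the log2 scale, coloured by list, with bars of 1 SE and filled symbols where the adjusted p is under 0.05. Mfap2, Tgfb2, Loxl2, Tgfb1 and Fbln7 lie to the right among the called genes, and the other 9 called genes to the left.

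The profiles most like those of Eln and Fbn1 were looked up by the root mean square difference over the 8 samples, after each gene was centred on its own mean, among 15798 genes. Since the genes were chosen by likeness over these same samples, a shared order of means is no separate result. For Fbn1 they were Plaat3 (0.204), Mtrf1 (0.207) and Tnfrsf11b (0.214), all with higher means in the KO-labelled and C2C12 samples than in the WT-labelled ones. Tnfrsf11b was near background, at -4.51 in the KO-labelled, -5.78 in the WT-labelled and -4.21 in the C2C12 samples. Plaat3 averaged 2.16 in the KO-labelled, 0.50 in the WT-labelled and 2.27 in the C2C12 samples. For Eln they were an unnamed probe (0.0780), D930020B18Rik (0.0790) and Adap1 (0.0894). Adap1 averaged -3.29 in the KO-labelled, -3.21 in the WT-labelled and -2.97 in the C2C12 samples. In the same order the unnamed probe averaged -4.39, -4.32 and -4.15, and D930020B18Rik -4.26, -4.03 and -3.87. These 2 were near background, as Eln was.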

How the data were processed

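RNA of 11 samples was labelled with Cy3 and hybridised to Agilent 1-colour arrays. The deposited scanner files hold an intensity per spot. Per the submitters' processing notes, the software was Agilent Feature Extraction 9.5.3.1. It subtracted background and spatial trends, per the file headers. The deposited series-wide table holds log2 of the same processed signal within 0.01 for nearly all probes and was used as an alternative.

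Control spots and spots marked as outliers were left out, repeated spots averaged, and log2 of the signal minus the 75th percentile of the array taken. Probe coordinates are on mm8, per the file headers. Names came from RefSeq GRCm38.p6. Probes above background on at least 3 fitted arrays were tested with limma 3.58.1 in R 4.3.3 (lmFit, eBayes, Benjamini-Hochberg), 1 probe per gene (highest mean). Near-identical arrays were joined where their differences fell below spot noise (ratio 0.577 to 0.689 in 3 pairs, 2.52 to 6.42 in the other 13). KO with WT used 6 samples, comparisons with C2C12 used 8. A gene above background on no array of a group has only a bound, taken against the lowest signal above background. There were 3 slides and 2 scan days. The fit was tested on simulated data. Plots were drawn with Python 3.11.15 and matplotlib 3.10.9.

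Alternatives were the joining, background correction, scaling, filter, choice of probe, source of values, slide and region blocks, and leaving out each sample. The members and lists were chosen with earlier results of these data known. All members are named, and of the wider lists up to 3 called higher and 3 called lower per list by size of difference. The named probes' place in their transcripts was not used here.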

Additional observations from a re-analysis of the deposited data

Results flagged for a closer look

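The difference between KO-labelled and WT-labelled samples went in opposite directions in different heart regions for Efemp1 and Lox. For Efemp1 it was 0.49 in atrium, -8.77 in ventricle and -7.28 in aorta. For Lox it was 3.16 in atrium, -0.58 in ventricle and 0.48 in aorta. Each of these 6 values sets 1 KO-labelled sample against 1 WT-labelled sample of the same region, with no replicate. All 6 exceed 3 times the noise between repeated spots, but that noise is technical only and was taken from probes above the 75th percentile. Over such bright probes, separate samples of 1 group differed by 2.52 to 6.42 times it. The Efemp1 difference in atrium sets a level of -3.70 against -4.19, below the range this noise was taken from. Whether the opposite signs of Lox in ventricle and aorta exceed the spread between samples was not tested. The contrast of atrium with the other regions differed between the labels by 8.51 for Efemp1 and by 3.21 for Lox. No p-value is read for these 2 values, since the only spread in that model is that of the C2C12 pair. Ventricle against aorta was not tested. In both genes the WT atrium sample is the one that lies apart from the other 2 WT-labelled samples.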

How the results depend on the processing

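KO with WT gave 4466 genes and 4 members, but 2807 genes with normexp background correction, 897 genes and 0 members with the slide as a block, and 2 members with median scaling or with no filter on dim probes. Median scaling put the median of all genes at 0.05, against -0.06 with the 75th percentile, and no called member changed direction. Leaving out 1 sample gave 2648 to 5876 genes and 2 to 5 members. KO with C2C12 gave 199 genes, but 1629 with every array as its own sample, 47 with normexp, 100 with no filter, 27 with the slide block and 13 to 466 with 1 sample left out, and 0 members throughout. WT with C2C12 gave 4260 genes and 3 members, but 6661 and 5 with every array as its own sample, 2511 and 1 with normexp, 1 member with no filter, 2285 and 1 with the slide block, and 2272 to 5624 genes and 0 to 4 members with 1 sample left out. The region test called 122 genes with every array as its own sample, and 0 with any sample left out. Differences that turned sign were Eln in KO with WT (0.34 with normexp, 0.26 with the slide block), and in KO with C2C12 Eln (0.12 with normexp), Fbn1 (0.0425 with every array as its own sample, 0.17 with the slide block, -0.34 to 0.17 with 1 sample left out), Fbln2 (-0.0359 with every array, -0.0595 with normexp, -0.20 with the slide block, -0.20 to 0.24 with 1 sample left out), Loxl1 (0.004 with median scaling, 0.0302 with the slide block, -0.13 to 0.10 with 1 sample left out), and with the slide block Fbln1 (0.0613), Efemp2 (0.0262) and Lox (0.13). With 1 sample left out, the range was -0.42 to 0.0613 for Fbln1, -0.38 to 0.0262 for Efemp2 and -0.56 to 0.13 for Lox, and in WT with C2C12 -0.38 to 0.0690 for Eln. None of the differences that turned sign had been called, and the cause was not tested. Over single genes, 553 values kept direction and side of the threshold, 38 lost a call, 4 gained one and 24 turned. The labels give no replicate numbers to pair by, but KO and WT samples match by heart region, and that pairing, with the region as a block, gave Efemp2 an adjusted p of 0.0673, and changed no other member's call. Signals near background limit Eln, Mfap5 and Fbln5.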
